A study of Mus musculus with 9 samples.

Results

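The genes described here are the mouse Zfp genes, named for zinc finger protein and a number, as RNA sequencing measured them in gastrocnemius (calf muscle, white part) from Gaa knock-out and wild-type mice. Of the 18062 genes in the deposited table, 330 carried such a symbol, and the 242 with a mean of at least 0.5 RPKM over the 9 libraries are the members, chosen by that level. RPKM is a read count scaled to transcript length and library size. The rule itself used no difference between genotypes. A Zfp gene expressed in a single genotype could pass or miss that level because of it: 2 members had a knock-out mean under 0.5 RPKM, 8 had a wild-type mean under 0.5 RPKM, and 13 of the 88 genes left out had a mean of at least 0.5 RPKM in 1 of the genotypes.

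There were 5 libraries from Gaa knock-out mice aged 5 months, and 4 from wild-type mice, 2 of them aged 5 months and 2 aged 6 months. The knock-out allele disrupts exon 6 of Gaa and carries loxP sites in the introns on either side. The knock-out colony is of mixed BL6/129j background, kept inbred by mating siblings, and all 9 samples are labelled as of mixed background. Loss of Gaa, the lysosomal enzyme that degrades glycogen, models Pompe disease. The 4 wild-type columns (wt1 to wt4) show no age, so both ages form a single group, and since no individual mouse is named in the labels, the p-values reflect spread among libraries, which may be technical.

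Zinc fingers of the C2H2 kind are small folds in which paired cysteines and histidines hold a zinc ion, and tandem arrays of them read DNA sequence. Many Zfp proteins carry in addition a KRAB box, which binds the scaffold protein Trim28 and through it the histone methyltransferase Setdb1, so that chromatin at the bound site is silenced; retrotransposons are the best known targets. KRAB zinc finger genes lie in clusters of recent duplicates, whose members have similar sequences. The Zfp symbols also cover unrelated functions, among them RNA-binding proteins, co-repressors and ubiquitin ligases.

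The deleted gene checked the labels: Gaa stood at 3.44 ± 0.204 RPKM in knock-out muscle and 49.4 ± 4.48 RPKM in wild-type muscle (SD, n = 5 and n = 4). The steps between low values put the depth at 17.6 to 37.6 reads for 1 RPKM of a 1-kilobase transcript in knock-out libraries, against 37.2 to 64.3 reads in wild-type libraries. Genes that define fast skeletal muscle, such as Acta1 and Myh4, were abundant in every library, with summed levels of 87000 to 95700 RPKM in the knock-out, against 81700 to 87700 RPKM in the wild type. Markers of some other cells differed between genotypes, where 37.0% of all tested genes were called higher in the knock-out and 14.8% lower. Of 15 macrophage markers 12 were higher in the knock-out and none lower (summed level 85.0 to 144 RPKM in the knock-out, 36.5 to 47.2 RPKM in the wild type), all 5 tested satellite cell and myoblast markers were higher, 3 of 9 fibroblast markers were higher and 1 lower (summed level 300 to 399 RPKM in the knock-out, 199 to 291 RPKM in the wild type), and 7 of 11 endothelial and 5 of 8 adipocyte markers were lower. In whole muscle, fewer cells of a type and less RNA per cell cannot be told apart.

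Most Zfp genes were expressed at a low level and differed little between genotypes. The median level of the 242 members was 1.79 RPKM, against 4.61 RPKM for the 11032 tested genes, and 207 members lay under 5 RPKM. By limma at an adjusted p below 0.05, 48 members were higher in the knock-out, 41 were lower and 153 did not pass, so that 36.8% of the members were called, against 51.8% of all tested genes. Calls of a higher level were made for 37.0% of all tested genes and calls of a lower level for 14.8%. The members' 19.8% higher was below that background and their 16.9% lower was near it. The change was under 1.5-fold for 89.3% of the members and for 82.6% of all tested genes, and 2 members changed by at least 2-fold and passed, Zfp641 and Zfp366, where 6.22% of all tested genes did. All 5 knock-out values lay above all 4 wild-type values in 42 members and below them in 36 members, against 30.9% and 11.4% of all tested genes.

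The balance of directions depended on how the libraries were scaled. The median log2 fold change, knock-out over wild type, was 0.04 for the members and 0.12 for all tested genes. With each library centred on its median log2 ratio, which moves the median of all tested genes to 0, 23 members were higher and 67 lower, against 25.1% and 24.9% of all tested genes (37.2% of the members called in either direction, against 49.9%), and the members' median was -0.09. All 23 members higher after centring were also higher as deposited, and all 41 members lower as deposited were also lower after centring. A further 25 were higher as deposited alone, 26 were lower after centring alone, and none was called in opposite directions. Without wild-type library wt2 the members called higher fell to 30.

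**Figure D1:**
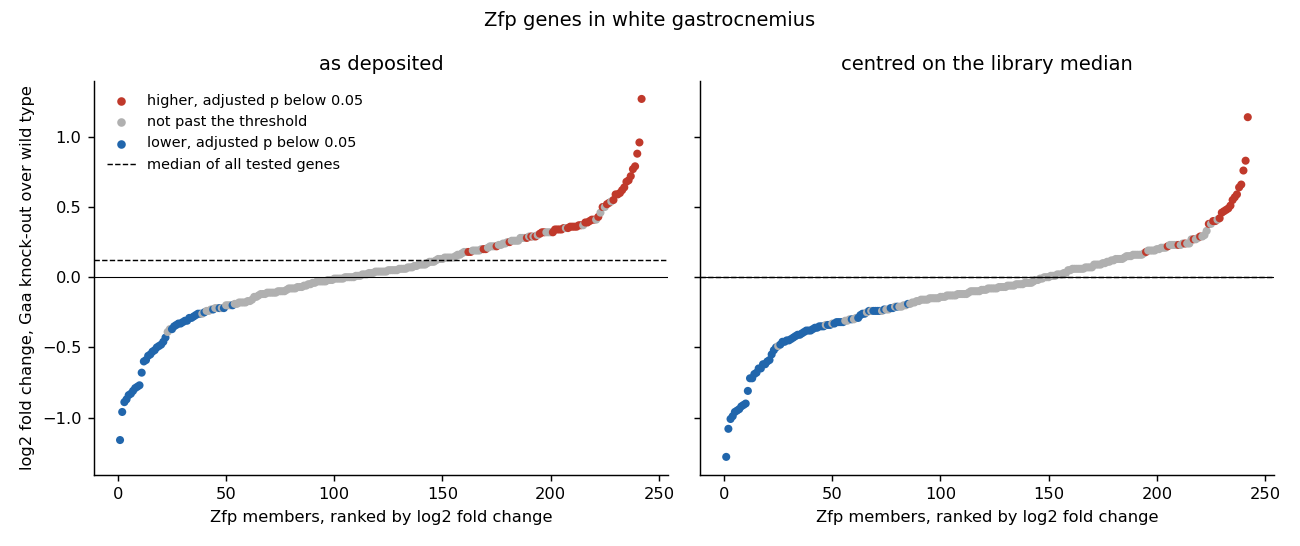
The 242 Zfp members ranked by log2 fold change of knock-out over wild type, on the deposited values (left) and after centring each library on its median (right); red points were higher and blue points lower in the knock-out by limma at an adjusted p below 0.05, grey points did not pass, and the dashed line is the median of all 11032 tested genes. On the left 48 members are red and 41 blue; on the right 23 are red and 67 blue, and most members lie near zero in both.

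Relative to all tested genes, the median Zfp member was lower in each knock-out library than in any wild-type library. The difference between the members' median log2 ratio and that of all tested genes was -0.061, -0.105, -0.004, -0.011 and -0.025 in the knock-out libraries, against 0.019, 0.029, 0.073 and 0.077 in the wild-type libraries. The groups did not overlap, but the gap between ko3 and wt1 was small beside the spread within each genotype. Members without a KRAB box gave -0.059 to -0.031 in the knock-out, against 0.051 to 0.076 in the wild type, and members with a KRAB box overlapped, at -0.165 to 0.048 in the knock-out against -0.033 to 0.096 in the wild type. The summed level of all members was 826 to 888 RPKM in the knock-out, against 906 to 918 RPKM in the wild type. Zfp106 alone made up 18% of the members' RPKM, and without it the sums overlapped, at 692 to 737 RPKM in the knock-out, against 725 to 751 RPKM in the wild type.

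**Figure D2:**
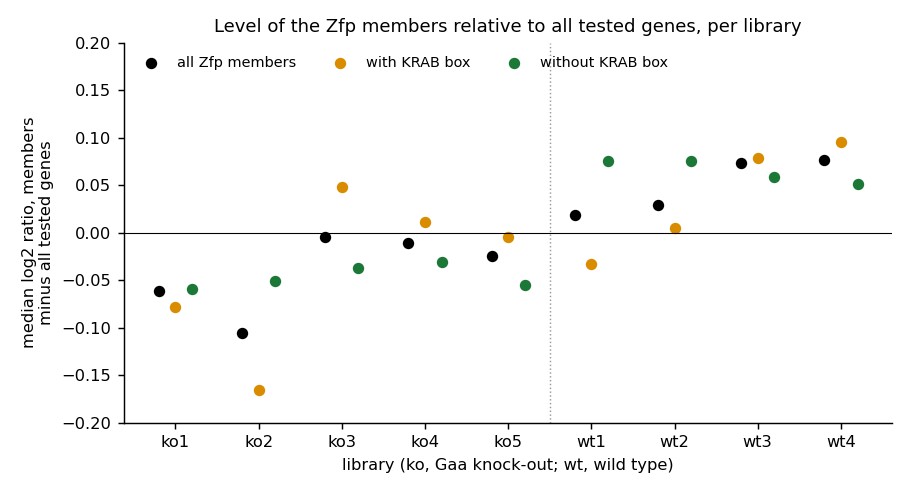
Median log2 ratio of the Zfp members less that of all tested genes in each library, for all 242 members (black), the 116 with a KRAB box (orange) and the 124 without (green). The 5 knock-out libraries lie below the 4 wild-type libraries for all members and for those without a KRAB box, and the groups overlap for those with a KRAB box.

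Among all tested genes, short and abundant transcripts were more often higher in the knock-out, so the shares are also given by length and by abundance. The members' transcripts had a median length of 3316 bases, against 2865 bases for all tested genes. With the tested genes split evenly into short, middle and long transcripts, 21.1% of the 38 short members were higher, against 49.6% of all short genes. It was 17.1% of the 105 middle members against 35.6%, and 21.6% of the 97 long members against 25.7%. Lower calls took 13.2%, 16.2% and 19.6% of the members in the same order, against 9.5%, 14.4% and 20.3% of all tested genes. By abundance, 15% of the members under 1 RPKM were higher, 15.8% at 1 to 2 RPKM and 25.4% at 2 to 5 RPKM. At 5 RPKM and over it was 25.7%. All tested genes had 22.9%, 27.2%, 34.3% and 45.0% higher in the same order. Lower calls took 6.67% of the members under 1 RPKM, 17.1% at 1 to 2 RPKM, 21.1% at 2 to 5 RPKM and 25.7% at 5 RPKM and over, against 12%, 14.1%, 14.2% and 16.1% of all tested genes at the same levels. When a trend of the log2 ratio with length was removed from each library, 35 members were higher and 67 lower.

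KRAB proteins made up 116 of the 240 members with a matched coding sequence. Of these, 20 were higher in the knock-out, 17 lower and 79 not called, and after centring 7 were higher and 26 lower. Their 14.7% lower, or 22.4% after centring, was near the 14.8% and 24.9% of all tested genes, and their 17.2% higher, or 6.03% after centring, was below the 37.0% and 25.1% of all tested genes. The 124 members without the box gave 28 higher and 24 lower, and after centring 16 and 41 (22.6% and 19.4%, and 12.9% and 33.1% after centring). The medians were 0.07 with and 0.01 without the box on the log2 scale, so neither class stood far from the other. The number of KRAB members called higher rested on few libraries: it fell to 9 without wt1, to 9 without wt2 and to 10 without ko5. The arrays of fingers were longer in KRAB members, with a median of 12 fingers against 7. Among the 41 members with at least 15 fingers 14.6% were higher and 24.4% lower (2.44% and 41.5% after centring). Among the 15 with at most 1 finger 40.0% were higher and 13.3% lower (33.3% and 26.7% after centring). As deposited, the latter shares were near the 37.0% and 14.8% of all tested genes. The median transcript length was 4184 bases with at least 15 fingers and 2984 bases with at most 1, and the part of length was not tested.

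KRAB genes whose symbol in the deposited table is not Zfp and a number alone stood lower. Of 43 such tested genes 2 were higher and 9 lower, 2 and 18 after centring, with a median log2 fold change of -0.16. That is 4.65% higher and 20.9% lower, against 37.0% and 14.8% of all tested genes. After centring it was 4.65% and 41.9%, against 25.1% and 24.9%. The split from the KRAB members is one of symbols only. Some of these genes are now named Zfp, such as Etohi1 (Zfp971), Gm14420 (Zfp970) and Gm4944 (Zfp994). Others, such as Zfp119a, are Zfp symbols with a letter suffix. Among the 9 lower genes, Etohi1, Gm14288, Gm14325, Gm14326, Gm14420 and Gm14440 lie on chromosome 2. Gm4944, also lower, lies inside the run on chromosome 17 described below. The 43 include Pogk, a KRAB protein fused to a transposase-derived domain, at 1.36 ± 0.17 RPKM in the knock-out and 2.34 ± 0.071 RPKM in the wild type (log2 fold change -0.75, limma adjusted p = 7.3e-05). Among them 3 pairs of Gm genes had values within 2% of each other in every library, so these copies do not give independent values; no pair of Zfp members was that close. The other named families of C2H2 genes (Zbtb, Klf, Zscan and Zkscan, and Zfp symbols with a letter suffix), 12 of whose genes are also among those 43, had 20 of 76 higher and 9 lower, 12 and 18 after centring, and without ko1 the lower count was 5. Their 26.3% higher was below the 37.0% of all tested genes, and their 11.8% lower stood against 14.8%. After centring the shares were 15.8% and 23.7%, against 25.1% and 24.9%. These families held changes larger than any Zfp member, such as Klf5, a regulator of cell proliferation, at 3.81 ± 0.488 RPKM in the knock-out and 0.622 ± 0.0329 RPKM in the wild type (log2 fold change 2.43, limma adjusted p = 7.4e-09).

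Most of the genes through which KRAB proteins act changed little or did not pass. Of 36 tested co-repressor and heterochromatin genes 10 were higher and 5 lower (27.8% and 13.9%, against 37.0% and 14.8% of all tested genes), and 3 and 8 after centring (8.33% and 22.2%, against 25.1% and 24.9%). The lower shares were near those of all tested genes. Trim28 stood at 11.7, 12.4, 10.6, 11.7 and 11.3 RPKM in the knock-out libraries, against 11.1, 10.8, 10.8 and 9.62 RPKM in the wild-type libraries, with overlapping groups (log2 fold change 0.13, limma adjusted p = 0.11). Setdb1 was slightly higher, at 3.76 ± 0.0765 RPKM in the knock-out against 3.21 ± 0.133 RPKM in the wild type (log2 fold change 0.22, limma adjusted p = 0.0085), and after centring it did not pass (0.09, limma adjusted p = 0.17). The clearest change was in Rbbp4, a histone chaperone shared by several chromatin complexes, at 20.4 ± 0.873 RPKM in the knock-out and 11.5 ± 0.716 RPKM in the wild type (log2 fold change 0.83, limma adjusted p = 5e-07). The DNA methyltransferase Dnmt3a fell by 0.36 on the log2 scale (limma adjusted p = 0.0019) and the Trim28 relative Trim24 by 0.27 (limma adjusted p = 0.015). Without wt2 the list had 6 higher genes, and without ko1, ko2 or wt1 it had 3 lower genes.

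**Figure D3:**
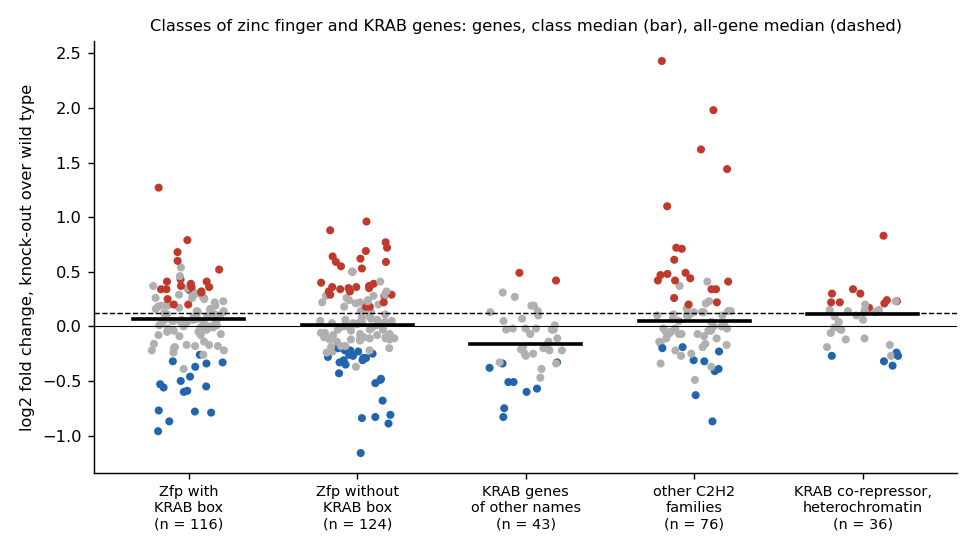
Log2 fold change of knock-out over wild type for each gene of 5 classes: Zfp members with a KRAB box, Zfp members without one, KRAB genes of other names, other C2H2 families, and KRAB co-repressor and heterochromatin genes; bars are class medians, the dashed line is the median of all tested genes, and red and blue mark genes higher and lower by limma. Of the KRAB genes of other names, 12 are also counted in the other C2H2 families. The medians are 0.07, 0.01, -0.16, 0.05 and 0.11.

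Neighbouring Zfp genes were mostly lower in 1 place. Members with at most 5 other protein-coding genes between them formed 9 runs of at least 5 members, 67 members in all, by gene order in the RefSeq annotation of GRCm38.p6. The run on chromosome 17 that reaches Zfp945 and starts at Zfp51 holds 11 members, all with a KRAB box, within 22 coding genes. Of these 8 were lower in the knock-out, 1 was higher and 2 did not pass, with a median log2 fold change of -0.56; after centring 9 were lower and none higher. On the rest of chromosome 17, 223 of 550 tested genes were higher and 86 lower, with a median of 0.15. The run was singled out after its values were seen.

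The 8 that fell are Zfp51, Zfp52, Zfp948, Zfp942, Zfp943, Zfp944, Zfp758 and Zfp946. Zfp943, the most abundant of them, stood at 3.46, 2.94, 4.22, 3.42 and 3.49 RPKM in the knock-out libraries, against 5.82, 6.23, 5.82 and 6.19 RPKM in the wild-type libraries. Every knock-out library was below every wild-type library (log2 fold change -0.77 ± 0.09 SE, limma adjusted p = 3e-05). Zfp52 stood at 0.762, 0.702, 0.694, 0.817 and 0.939 RPKM in the knock-out, against 1.47, 1.27, 1.62 and 1.68 RPKM in the wild type, again with no overlap (-0.87 ± 0.12 SE, limma adjusted p = 0.0001). Zfp758 averaged 1.29 ± 0.193 RPKM in the knock-out and 2.27 ± 0.122 RPKM in the wild type (-0.78, limma adjusted p = 0.00012), and Zfp944 averaged 1.24 ± 0.206 RPKM and 2.2 ± 0.246 RPKM in the same groups (-0.79, limma adjusted p = 0.0003). Both were separated completely. Zfp942 and Zfp946 gave -0.59 and -0.56 and Zfp51 gave -0.32, each without overlap.

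Zfp948 fell with overlapping groups, at 0.819, 0.883, 0.955, 0.935 and 1.2 RPKM in the knock-out against 1.76, 2.12, 1.08 and 1.06 RPKM in the wild type (-0.55, limma adjusted p = 0.033). Its wild-type libraries split, with wt1 and wt2 high and wt3 and wt4 within the knock-out range, and the call was lost without any of ko1, ko2, ko3, ko4, wt1 and wt2 (-0.55 to -0.38, limma adjusted p = 0.054 to 0.1). Zfp229 did not pass (-0.02, limma adjusted p = 0.87), nor did Zfp945 as deposited (-0.26, limma adjusted p = 0.098), though Zfp945 was lower after centring (-0.39, limma adjusted p = 0.023). Zfp53 was the exception, at 0.678 ± 0.0559 RPKM in the knock-out and 0.497 ± 0.0965 RPKM in the wild type (0.39, limma adjusted p = 0.034). With a wild-type mean under 0.5 RPKM, Zfp53 is a member only through its knock-out level. Its increase is therefore not independent of the choice of members. Its call was lost after centring (0.27, limma adjusted p = 0.1) and without any of ko2, ko3, ko4, ko5, wt1 and wt2. With any 1 library left out, 7 or 8 members of the run were lower.

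The only other tested gene inside the run, Gm4944, is a KRAB gene too and averaged 0.856 ± 0.169 RPKM in the knock-out, against 1.59 ± 0.119 RPKM in the wild type (-0.83, limma adjusted p = 0.00027). Of the 10 coding genes on each side, 3 were expressed enough to be tested. Ppp2r1a, a scaffold subunit of protein phosphatase 2A, gave 0.17, Zfp160 gave -0.19 and Zfp213 gave -0.06, and of these only Ppp2r1a passed as deposited (limma adjusted p = 0.024). After centring Ppp2r1a did not pass (0.04, limma adjusted p = 0.56), nor did Zfp213 (-0.19, limma adjusted p = 0.2). Zfp160, a KRAB gene, was then lower (-0.32, limma adjusted p = 0.016). Reads of such duplicates can be placed on the wrong copy. The share of a member's 50-base words that also occur in another gene was 10.4% for Zfp944, whose main partner was Zfp942, 8.99% for Zfp942, 5.99% for Zfp758 and under 4% for the other 8.

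**Figure D4:**
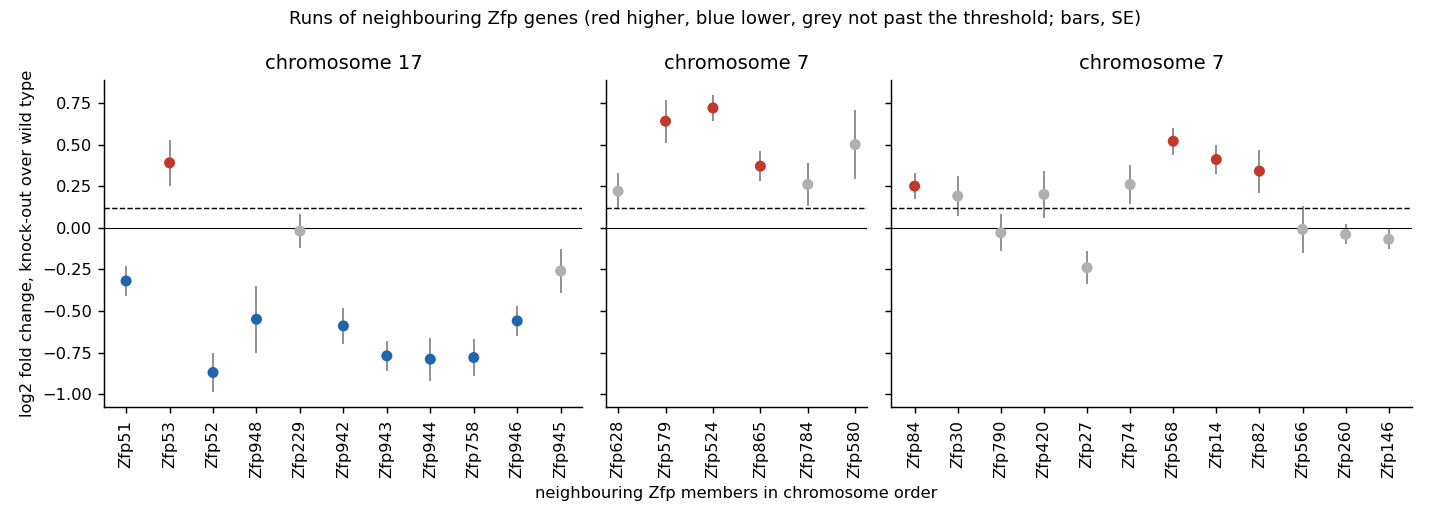
Log2 fold change of knock-out over wild type with its SE for Zfp members in chromosome order, in the run on chromosome 17 (11 members) and in the runs on chromosome 7 of 6 and of 12 members; red and blue mark members higher and lower by limma, grey those not past the threshold, and the dashed line is the median of all tested genes, 0.12. In the first run 8 of 11 members are blue; the other runs have 3 and 4 red members and no blue one.

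The promoters of the members that fell together are shown because they share sequence and face one another. Zfp944 and Zfp758 are transcribed away from each other from starts 63 bases apart, so their windows overlap by 162 bases, and Zfp942 and Zfp943 likewise start 95 bases apart. The windows reach from 250 bases before the start to 50 after it, taken from RefSeq on GRCm38.p6 and written 5′ to 3′ along each gene: Zfp943 at chr17:21962309-21962608 on the plus strand, Zfp758 at chr17:22361213-22361512 on the plus strand, and Zfp944 at chr17:22361351-22361650 on the minus strand. Capitals mark the GC box GGGCGG on either strand (CCGCCC when read on the other) and the letters GTCACGTGAC, which read the same on both strands.
Zfp943: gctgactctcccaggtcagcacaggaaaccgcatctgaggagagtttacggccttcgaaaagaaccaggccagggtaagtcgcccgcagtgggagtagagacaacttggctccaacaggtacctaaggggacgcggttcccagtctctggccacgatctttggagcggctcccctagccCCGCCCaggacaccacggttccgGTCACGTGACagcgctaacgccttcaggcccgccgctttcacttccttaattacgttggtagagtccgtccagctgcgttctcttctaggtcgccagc
Zfp758: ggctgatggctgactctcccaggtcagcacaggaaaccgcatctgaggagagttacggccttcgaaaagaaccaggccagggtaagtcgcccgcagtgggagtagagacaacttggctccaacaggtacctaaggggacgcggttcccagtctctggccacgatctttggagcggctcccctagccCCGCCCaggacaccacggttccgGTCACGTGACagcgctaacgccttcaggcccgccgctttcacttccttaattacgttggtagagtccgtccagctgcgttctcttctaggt
Zfp944: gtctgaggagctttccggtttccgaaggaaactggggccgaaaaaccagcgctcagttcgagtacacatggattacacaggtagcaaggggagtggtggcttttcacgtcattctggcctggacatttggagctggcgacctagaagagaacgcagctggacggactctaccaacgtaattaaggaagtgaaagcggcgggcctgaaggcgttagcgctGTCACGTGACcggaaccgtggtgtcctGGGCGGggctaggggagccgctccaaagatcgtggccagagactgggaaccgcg

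The windows of Zfp943 and Zfp758 were 94.8% identical, and a GC box and GTCACGTGAC stand in all 3; the GC box and GTCACGTGAC of Zfp758 and Zfp944 lie in the part where their windows overlap and are the same letters read from opposite strands. The core CACGTG is the E box, read by basic helix-loop-helix factors, and GTCACGTGAC is known as the form bound by TFEB in promoters of lysosomal genes. In the run, CACGTG was in the windows of Zfp942, Zfp943, Zfp944, Zfp758 and Zfp946 and of Gm4944, which were all lower in the knock-out, and GTCACGTGAC in those of Zfp942, Zfp943, Zfp944 and Zfp758. CACGTG was not in the windows of Zfp53, Zfp52, Zfp948, Zfp229 and Zfp945, and Zfp51 had no window. Among all 27025 promoter windows 7.24% held CACGTG and 0.359% held GTCACGTGAC, which contains it; among the 196 members with a window the counts were 18 and 5. The windows of Zfp942 and Zfp943 overlap as well, so those 5 members do not stand for 5 separate sites. The fifth member with GTCACGTGAC, Zfp207, was higher in the knock-out as deposited and did not pass after centring (0.15, limma adjusted p = 0.13). Outside the run the 13 members with CACGTG gave 4 higher and 1 lower as deposited, and 1 higher and 2 lower after centring. The shares of all tested genes were 37.0% higher and 14.8% lower as deposited, and 25.1% and 24.9% after centring. The search for GTCACGTGAC was chosen after these promoters were seen. A match is a description of letters, not of a bound site.

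Across all members the promoters were rich in CG pairs, with a median of 16 per window against 7 over all windows. The GC box was in 50.5% of the members' windows against 35.9% of all, and the letters CCGGAAG, read by ETS factors, in 23.0% against 9.12%. The TATA box, TATAAA, was in 5.1% against 14.2%. These are counts on both strands. The members were chosen by their level, whereas the comparison took all 27025 windows, more than the 11032 tested genes. Promoters of the tested genes alone were not compared, so these shares do not set Zfp genes apart from other expressed genes.

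The other runs did not move as one block. On chromosome 7, the run of 6 members that includes Zfp579 and Zfp524, none with a KRAB box, had 3 higher and none lower, as deposited and after centring, with a median log2 fold change of 0.44. Also on chromosome 7, a run of 12 members had 4 higher (Zfp84, Zfp568, Zfp14 and Zfp82) and none lower, and after centring 2 higher and 2 lower. In a run of 8 on the same chromosome, Zfp180 alone was called as deposited, and it was lower; after centring 2 were lower, the other being Zfp93. The run of 7 on chromosome 6 had 1 lower as deposited and 3 after centring, and none higher. A second run on chromosome 17, of 7 KRAB members, had 2 higher and none lower, and none in either direction after centring. Chromosome 7 held 61 members in all, of which 16 were higher (26.2%) and 3 lower (4.92%), where 43.0% and 11.8% of its 833 tested genes were.

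The largest increase was in Zfp641, a KRAB protein with 5 fingers. It stood at 7.81, 7.57, 8.3, 8.67 and 8.66 RPKM in the knock-out libraries, against 3.25, 3.42, 3.44 and 3.26 RPKM in the wild-type libraries. The groups were far apart and each was tight (2.41-fold; log2 fold change 1.27 ± 0.06 SE, limma adjusted p = 2.6e-08), and after centring the change was 1.14. Zfp641 kept its call and direction in all 18 alternative settings.

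Both measured members of the NET family, Zfp503 and Zfp703, rose. These proteins act as transcriptional co-repressors in developing embryos and have a zinc finger that the C2H2 pattern used here does not match. Zfp503 stood at 2.9, 2.96, 3.26, 2.35 and 2.79 RPKM in the knock-out, against 1.29, 1.23, 1.63 and 1.53 RPKM in the wild type (0.96 ± 0.11 SE, limma adjusted p = 2.9e-05). Zfp703 stood at 7.69, 8.01, 6.63, 7.66 and 9.0 RPKM in the knock-out, against 5.14, 3.65, 5.21 and 4.26 RPKM in the wild type (0.77 ± 0.11 SE, limma adjusted p = 0.00016). Neither gene had overlapping groups.

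The other members among the 10 largest increases were Zfp414, Zfp90, Zfp524, Zfp296, Zfp28, Zfp579 and Zfp329. Zfp414 averaged 3.02 ± 0.416 RPKM in the knock-out and 1.6 ± 0.282 RPKM in the wild type (0.88, limma adjusted p = 0.00017). Zfp524, whose human counterpart binds telomeric repeats, averaged 5.92 ± 0.553 RPKM in the knock-out and 3.55 ± 0.169 RPKM in the wild type (0.72, limma adjusted p = 1.6e-05). The remaining 5 changed by 0.62 to 0.79 with no overlap between groups. Zfp90 and Zfp296 are members only through their knock-out level, with wild-type means of 0.341 and 0.35 RPKM, so their increases are not independent of the choice. Both were so low that they rested on 19 and 18 estimated reads in the lowest library, and 16% of the 50-base words of Zfp28 occur in another gene. Zfp217, a co-repressor subunit that in human breast cancer is amplified, averaged 1.42 ± 0.0832 RPKM in the knock-out and 0.911 ± 0.139 RPKM in the wild type (0.59, limma adjusted p = 0.00089).

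**Figure D5:**
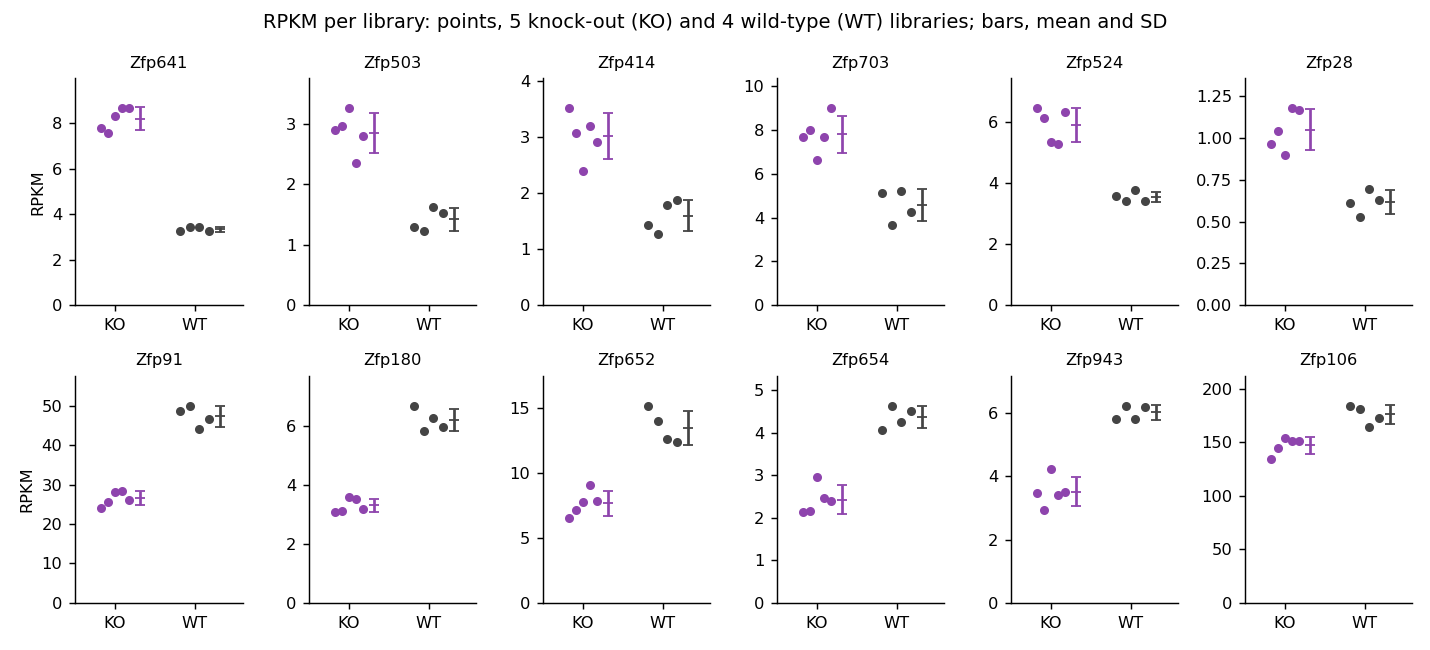
RPKM in each library for 12 Zfp members, 5 knock-out libraries (KO, purple) left and 4 wild-type libraries (WT, dark grey) right in each panel, with the mean and SD beside the points. In Zfp641, Zfp503, Zfp414, Zfp703, Zfp524 and Zfp28 every knock-out point lies above every wild-type point, and in Zfp91, Zfp180, Zfp652, Zfp654, Zfp943 and Zfp106 every knock-out point lies below.

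Of the 5 most abundant members, 4 were lower and 1 was higher as deposited. Over all 35 members at 5 RPKM and over, 9 were higher and 9 lower, or 25.7% each, against 45.0% and 16.1% of all tested genes at that level. Zfp106, an RNA-binding protein whose loss in mice causes degeneration of motor neurons and muscle, had the highest level of all members. It stood at 134, 145, 154, 151 and 151 RPKM in the knock-out, against 184, 181, 164 and 173 RPKM in the wild type. The groups did not overlap, though the highest knock-out value, 154 RPKM, was close to the lowest wild-type value, 164 RPKM (log2 fold change -0.26 ± 0.06 SE, limma adjusted p = 0.0027). Zfp91, a ubiquitin ligase of the non-canonical NF-kappaB pathway and the second most abundant member, changed far more. It stood at 24.1, 25.6, 28.1, 28.3 and 26.2 RPKM in the knock-out, against 48.7, 50, 44.0 and 46.7 RPKM in the wild type (-0.84 ± 0.06 SE, limma adjusted p = 7.7e-07). The highest knock-out value lay well under the lowest wild-type value.

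Zfp238, now Zbtb18, a repressor needed for myogenic differentiation, averaged 23.7 ± 1.08 RPKM in the knock-out and 28.9 ± 0.849 RPKM in the wild type (-0.29, limma adjusted p = 0.00056). Zfp651 averaged 18.4 ± 1.82 RPKM in the knock-out and 22.7 ± 1.2 RPKM in the wild type (-0.31, limma adjusted p = 0.0049). These 4 fell without overlap between groups. Zfp358, the fifth of the most abundant, was higher as deposited (0.18, limma adjusted p = 0.018) and did not pass after centring (0.06, limma adjusted p = 0.5) or without wt4 (0.15, limma adjusted p = 0.061).

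Among the other members with the largest decreases, Zfp180 stood at 3.09, 3.12, 3.58, 3.5 and 3.18 RPKM in the knock-out, against 6.67, 5.83, 6.25 and 5.96 RPKM in the wild type. The groups were widely separated (-0.89 ± 0.07 SE, limma adjusted p = 1.5e-06). Zfp652, whose human counterpart is a co-repressor, averaged 7.68 ± 0.958 RPKM in the knock-out and 13.5 ± 1.32 RPKM in the wild type (-0.81, limma adjusted p = 3e-05). Zfp654 averaged 2.43 ± 0.333 RPKM in the knock-out and 4.37 ± 0.256 RPKM in the wild type (-0.83, limma adjusted p = 2.8e-05). Zfp457 averaged 0.369 ± 0.0702 RPKM in the knock-out and 0.813 ± 0.165 RPKM in the wild type (-0.96, limma adjusted p = 0.00066). Zfp457 is a KRAB gene that shares 12.7% of its words with other genes, chiefly Zfp458. It met the level for members only through the wild type, where it is high, so its difference is not independent of the choice. Zfp52, Zfp943, Zfp944 and Zfp758, of the run on chromosome 17, complete the 10 with Zfp91 and Zfp366.

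Zfp366 had the largest log2 decrease of the members. Its knock-out mean was under 0.5 RPKM, so like Zfp457 it is a member only through its wild-type level, and its difference and rank are not independent of that choice. It encodes a co-repressor known from dendritic cells. It stood at 0.19, 0.533, 0.245, 0.279 and 0.48 RPKM in the knock-out, against 0.894, 1.04, 0.796 and 0.692 RPKM in the wild type (-1.16 ± 0.24 SE, limma adjusted p = 0.0018). Every knock-out library was below every wild-type library, with ko2 the highest of the knock-out libraries. Endothelial markers were lower too: the summed level of all 11 was 34.6, 61.3, 37.7, 40.4 and 39.6 RPKM in the knock-out, against 48.3, 57.9, 80.4 and 74.0 RPKM in the wild type. Here ko2 was again the highest of the knock-out libraries, none of the 11 markers was at 0, and the groups overlapped. The wild-type libraries were ordered differently. Zfp366 was highest in wt2 and lowest in wt4, and the marker sum was highest in wt3 and lowest in wt1. The part of the endothelial shift in the Zfp366 result was not tested.

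Among members with roles outside DNA binding, Zfp36 (tristetraprolin), which binds AU-rich elements and speeds the decay of cytokine mRNAs, did not pass. It stood at 7.65, 10.5, 6.35, 7.85 and 9.57 RPKM in the knock-out, against 12.8, 7.2, 4.2 and 3.73 RPKM in the wild type (0.41, limma adjusted p = 0.27). The wild-type values spread widely and wt1 was the highest of all libraries; without wt1 the log2 fold change was 0.76 (limma adjusted p = 0.012). The summed level of the 17 tested immediate-early genes split the wild-type libraries in the same order, at 172 to 224 RPKM in the knock-out and 338, 291, 134 and 131 RPKM in the wild type, and its part in the Zfp36 values was not tested. Zfp207, a microtubule-binding protein of the spindle, averaged 20.1 ± 1.58 RPKM in the knock-out and 16.6 ± 0.796 RPKM in the wild type (0.28, limma adjusted p = 0.0044), and after centring it did not pass (0.15, limma adjusted p = 0.13), nor did its most abundant transcript alone (0.27, limma adjusted p = 0.066). Zfp598, a ubiquitin ligase that marks collided ribosomes, was noticed after its values were seen; it averaged 9.11 ± 0.554 RPKM in the knock-out and 6.05 ± 0.596 RPKM in the wild type (0.59, limma adjusted p = 6e-05).

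Members tied to adipocytes differed from one another. Zfp423, which commits cells to the adipocyte lineage, stood at 0.767, 1.18, 0.689, 1.09 and 0.779 RPKM in the knock-out, against 1.46, 1.27, 1.14 and 1.04 RPKM in the wild type. The groups overlapped and the call was marginal (-0.43, limma adjusted p = 0.045). It was lost when ko1, ko3, ko5, wt1, wt2 or wt3 was left out (-0.45 to -0.35, limma adjusted p = 0.059 to 0.13), with no filter on low values (limma adjusted p = 0.085) and with the most abundant transcript alone (limma adjusted p = 0.053). Adipocyte markers summed to 203 to 314 RPKM in the knock-out, against 250 to 390 RPKM in the wild type, 5 of 8 were lower and none was at 0; their part in the Zfp423 value was not tested. Zfp516, an activator of the brown fat gene Ucp1, was slightly higher (0.22, limma adjusted p = 0.022), and not after centring (0.09, limma adjusted p = 0.29) or without wt2 or wt4 (limma adjusted p = 0.053 and 0.067). Neither Zfp521 (-0.11, limma adjusted p = 0.26), which opposes Zfp423, nor Zfp467 (-0.11, limma adjusted p = 0.27) passed as deposited; after centring both were lower by a small margin (-0.24 each, limma adjusted p = 0.025 and 0.04).

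Among general transcription factors of the group, Zfp148, which binds GC-rich promoters, averaged 2.4 ± 0.175 RPKM in the knock-out and 2.8 ± 0.0845 RPKM in the wild type (-0.22, limma adjusted p = 0.028), a call lost without ko1, ko2, wt2 or wt4 (limma adjusted p = 0.054 to 0.07). Its relative Zfp281 did not pass as deposited (-0.19, limma adjusted p = 0.1) and was lower after centring (-0.32, limma adjusted p = 0.014) and without wt1 (-0.25, limma adjusted p = 0.049). Zfp143, an activator of snRNA and many housekeeping genes, gave 0.04 (limma adjusted p = 0.76), Zfp335 gave 0.03 (limma adjusted p = 0.78), and Zfp260, a cofactor of GATA4 in the heart, gave -0.04 (limma adjusted p = 0.59). Zfp219, a cofactor of Sox9 in cartilage, was higher as deposited (0.36, limma adjusted p = 0.0092) and not after centring (0.23, limma adjusted p = 0.065).

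KRAB members with known targets were also mixed. Zfp568, which represses a placental transcript of Igf2 in mouse embryos, stood at 2.19, 2.43, 2.68, 2.65 and 2.57 RPKM in the knock-out, against 1.76, 1.6, 1.76 and 1.72 RPKM in the wild type. It rose without overlap (0.52, limma adjusted p = 0.00022), and its most abundant transcript alone did not pass (0.47, limma adjusted p = 0.055). Zfp809, which silences retroviral DNA through its primer binding site, averaged 1.68 ± 0.306 RPKM in the knock-out and 1.62 ± 0.307 RPKM in the wild type (0.05, limma adjusted p = 0.78). Zfp57, which protects imprinted methylation, was below the threshold for members, at 0.146 ± 0.0855 RPKM in the knock-out and 0.161 ± 0.0616 RPKM in the wild type.

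At the threshold of 0.5 RPKM, the members just inside were Zfp296, Zfp90 and Zfp128, with means over all libraries of 0.504, 0.511 and 0.515 RPKM, and the genes just outside were Zfp608, Zfp697 and Zfp748, with 0.498, 0.496 and 0.494 RPKM. Zfp697, an RNA-binding protein known from muscle remodelling, stood at 0.866, 0.607, 0.873, 0.76 and 0.609 RPKM in the knock-out, against 0.244, 0.179, 0.195 and 0.134 RPKM in the wild type. Zfp608 and Zfp748 had overlapping groups.

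The precision differed between members. The median member had an estimated 114 reads in its lowest library, and 5 members had under 20 reads there. Of the 242 members 132 shared no 50-base word with another gene and 17 shared at least 10%. Zfp97 and Zfp960 shared 81.3% and 82.7%, chiefly with each other, and gave -0.53 and 0.13; these values are uncertain, since how such reads were assigned is not given in the sources used here.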

How the data were processed

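RNA of white gastrocnemius was extracted with Trizol and made into Illumina TruSeq libraries, per the labels' protocols. The authors deposited 1 table of RPKM values per RefSeq transcript, with 1 column per library. Per the submitters' processing notes, the build was mm9 and the tools Partek 6.6, TopHat 1.3.2 and Bowtie 0.12.7.0; the sources used here do not give strand or filters. The deposited 23665 transcripts were summed to 18062 genes by symbol. The 11032 genes with a mean of at least 0.5 RPKM were tested on log2(RPKM + 0.1), which understates changes of low genes, by limma (version 3.58.1, lmFit followed by eBayes with a trend; R 4.3.3), comparing 5 knock-out with 4 wild-type libraries in a two-sided test, with p-values adjusted over all of them by Benjamini-Hochberg and a threshold of 0.05. The fit was repeated with each library centred on its median log2 ratio and under the settings given at the end.

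Classes came from GENCODE M21 coding sequences, since the planned protein table was not used: a KRAB profile built with MAFFT 7.526 and HMMER 3.4 (E-value at most 1e-05), and C2H2 fingers by the pattern of cysteines and histidines. Both steps, and the runs of neighbours, were chosen after the data were seen. Gene order and promoters are RefSeq's on GRCm38.p6. Whole-read depth was estimated from steps of low values; among values up to 5 reads, 70.1% to 74.2% fell within 0.1 of a whole number, and such reads cover counting error only. Named genes were the 10 largest increases and 10 largest decreases called under both scalings, the 5 most abundant, a list of known roles and the genes at the threshold. The members and lists were chosen with earlier results of these data known.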

Additional observations from a re-analysis of the deposited data

Results flagged for a closer look

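Single libraries stood apart from the rest of their genotype in 2 of the 94 groups of libraries examined among the named members, where chance alone gives about 1 in 20. Zfp90 stood at 0.967 RPKM in knock-out library ko4, and the next knock-out value was 0.601 RPKM. Zfp521 stood at 1.92 RPKM in wild-type library wt2, and the next wild-type value was 1.71 RPKM.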

How the results depend on the processing

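Of 836 values for the 47 named members under 18 alternative settings, 778 kept their direction and side of the threshold, 13 newly passed it, 45 no longer did and none reversed; 32 members kept their call throughout. Counts moved most with scaling. Centring gave 23 higher and 67 lower members, quantile normalization 22 and 72, and removal of the length trend 67 lower. For all tested genes the lower counts were 2742 centred, 3056 by quantiles and 2654 without the length trend, and quantiles gave 2644 higher. KRAB members were 7 higher and 26 lower centred, 6 and 28 by quantiles, and 13 and 27 without the length trend; members without a KRAB box were 16 and 41, 16 and 44, and 40 lower in the same settings. KRAB genes of other names had 18, 18 and 19 lower genes in those settings. The co-repressor list had 3 higher and 8 lower centred, 3 and 9 by quantiles and 8 lower without the length trend, and the other C2H2 families 12 and 18, 13 and 17, and 16 lower, with 13 higher at a minimum of 1 RPKM. The run on chromosome 17 had 0 higher members in those 3 settings and at a minimum of 1 RPKM. The median log2 fold change of the members was -0.09 centred, -0.11 by quantiles and -0.06 without the length trend, and that of all tested genes -0.00, -0.03 and -0.00; with no filter on low values all tested genes had 0.07 and the difference between the medians was -0.03. The cause of these shifts was not tested.

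With 1 library left out in turn, 30 to 53 members were higher and 32 to 41 lower; 9 to 24 KRAB members were higher and 14 to 17 lower, and 21 to 29 members without a KRAB box were higher and 18 to 26 lower. In the run on chromosome 17, 0 to 1 members were higher and 7 to 8 lower. The co-repressor list had 6 to 12 higher and 3 to 5 lower, and the other C2H2 families 16 to 20 higher and 5 to 9 lower. No paired analysis was possible because the 4 wild-type columns do not carry the labels' replicate numbers, which restart within each age. Depth limits the low members: 5 had under 20 estimated reads in a library.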

Other observations

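Zinc finger genes outside the Zfp members held further large changes. Zscan18 averaged 0.854 ± 0.161 RPKM in the knock-out and 0.14 ± 0.0164 RPKM in the wild type (log2 fold change 1.98, limma adjusted p = 2.3e-06). Zfp385b averaged 1.08 ± 0.101 RPKM in the knock-out and 0.3 ± 0.126 RPKM in the wild type (1.62, limma adjusted p = 3.9e-05), and Zbtb42, a gene of skeletal muscle, averaged 0.99 ± 0.179 RPKM and 0.303 ± 0.0663 RPKM in the same groups (1.44, limma adjusted p = 2.4e-05). Zfp36l2, which binds AU-rich elements as Zfp36 does, averaged 5.18 ± 0.247 RPKM in the knock-out and 3.16 ± 0.674 RPKM in the wild type (0.72, limma adjusted p = 0.00034). None of these 4 had overlapping groups. Zscan18, Zfp385b and Zbtb42 had wild-type means under 0.5 RPKM and met the level for testing only through the knock-out, where they are high. Their differences are therefore not independent of that level.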
